A study of Mus musculus with 23 samples.

Results

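A set of 10 genes that mark the epithelial and the mesenchymal state of a cell was followed across the primary tumors and livers of an orthotopic colorectal cancer model. Male BALB/c mice aged 4 to 6 weeks received CT26, a line derived from a mouse colon carcinoma, in the cecal serosa. The members were every row of the gene table that carries their names, 10 of 48895 gene symbols: the epithelial genes Epcam, Cdh1, Krt8, and Krt18, the mesenchymal genes Cdh2 and Vim, and the transcription factors Zeb1, Snai1, Snai2, and Twist1. The RNA-seq held 23 libraries of poly(A) RNA: control liver from 5 sham-operated mice that received medium and bore no tumor (mice C1, C4, C5, C6, and C7), and, from each of 9 tumor-bearing mice (M1, M2, M4, M5, M6, M7, M8, M10, and M12), the pre-metastatic liver and the primary tumor. All mice were sacrificed 3 weeks after the injection. Every tumor therefore grew from the same cell line, each tumor library is bulk tissue in which cancer cells and host cells are mixed, and a lower level can mean fewer cells of a type or less RNA per cell, which cannot be told apart here.

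Epithelial cells are held together by E-cadherin (Cdh1) and carry the adhesion molecule Epcam, and simple epithelia, hepatocytes among them, build their intermediate filaments from the keratin pair Krt8 and Krt18. Mesenchymal cells use vimentin (Vim) filaments in place of keratins and often N-cadherin (Cdh2) in place of E-cadherin. In the epithelial-mesenchymal transition (EMT), the zinc finger factors Snai1, Snai2, and Zeb1 bind E-box motifs in epithelial promoters and repress them, and Twist1, a basic helix-loop-helix factor, acts with them. Liver adds a particular background, since hepatocytes make Krt8, Krt18, Cdh1, and N-cadherin.

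The positions in the authors' table are on mouse build GRCm38 (mm10). The epithelial members were Epcam at chr17:87635979-87651127 (plus strand), Cdh1 at chr8:106603350-106670247 (plus), and the neighbors Krt8 at chr15:101996711-102004342 (minus) and Krt18 at chr15:102028216-102032026 (plus). Among the mesenchymal members and factors were Vim at chr2:13574311-13582826, Snai1 at chr2:167538195-167542814, Snai2 at chr16:14705859-14709385, and Twist1 at chr12:33957671-33959831, all on the plus strand. The positions of Cdh2 and Zeb1 are given with their values. Each interval spans the whole gene, and counts were taken per gene.

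The 250 bases before the start of 4 members are shown to let the reader see which E-boxes of the CACCTG kind, the form bound by Snail and Zeb factors, lie in front of genes that fell in tumors (Epcam, Krt8, and Krt18) and of a gene that rose (Vim). They were taken from RefSeq (GRCm38.p6) and are printed 5′ to 3′ on the strand of the gene, with CACCTG and its reverse complement CAGGTG in capitals.
Epcam, chr17:87635729-87635978, plus strand: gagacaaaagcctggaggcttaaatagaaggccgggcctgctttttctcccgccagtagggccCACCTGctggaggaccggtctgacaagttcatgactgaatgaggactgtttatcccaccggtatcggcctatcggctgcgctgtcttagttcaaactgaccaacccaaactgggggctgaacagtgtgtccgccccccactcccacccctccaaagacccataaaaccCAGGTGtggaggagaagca
Krt8, chr15:102004343-102004592, minus strand: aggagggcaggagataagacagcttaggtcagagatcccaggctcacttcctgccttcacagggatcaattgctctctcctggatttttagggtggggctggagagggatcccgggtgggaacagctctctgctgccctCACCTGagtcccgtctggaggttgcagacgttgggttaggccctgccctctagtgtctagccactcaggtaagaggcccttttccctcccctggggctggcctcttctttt
Krt18, chr15:102027966-102028215, plus strand: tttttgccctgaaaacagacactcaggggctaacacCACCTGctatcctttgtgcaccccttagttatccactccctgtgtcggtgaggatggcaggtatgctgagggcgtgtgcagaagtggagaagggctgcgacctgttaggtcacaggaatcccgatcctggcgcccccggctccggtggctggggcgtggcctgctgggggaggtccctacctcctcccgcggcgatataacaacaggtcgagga
Vim, chr2:13574061-13574310, plus strand: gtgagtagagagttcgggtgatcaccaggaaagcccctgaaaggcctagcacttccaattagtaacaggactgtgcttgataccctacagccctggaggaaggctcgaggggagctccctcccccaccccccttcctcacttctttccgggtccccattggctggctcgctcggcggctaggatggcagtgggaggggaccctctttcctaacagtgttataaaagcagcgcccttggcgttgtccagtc

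The Epcam promoter held 2 such motifs, whose first bases lay 187 and 19 bases before the start. Krt8 held 1, at 111 bases, Krt18 held 1, at 214 bases, and Vim held none in this window. Of the other members in the RefSeq promoter table, Snai1 held 1, at 126 bases, and Twist1 held none. At least 1 motif was found in 17.2% of the 32851 promoters of the same length, and 2 or more in 2.06%. A match describes the letters of the window and is not evidence of binding.

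Total counts ran from 44587556 to 79773163 per library, so that a single count was worth little: 3 counts of Epcam were 0.0241 RPKM in control liver C1 (reads per kilobase of gene length and total counts on the usual scale, the authors' unit, given throughout as the level). A few libraries stood apart in ways that touch the members. In the pre-metastatic liver of mouse M6, 7 of the 11 listed genes that were at least 10 RPKM in the median tumor and at least 100 times their highest control liver had their highest liver value, Vim and Twist1 among them. In the tumor of mouse M2, 13 of 17 gut epithelium markers had their highest tumor value. In the tumor of mouse M12, albumin reached 172.8 RPKM, against 2.97 to 86.4 in the other 8 tumors. The called changes that these libraries moved are given with and without them. Tumors were nevertheless far from liver in hepatocyte markers, with a sum over 10 markers of 23.95 RPKM in M4 to 420.5 RPKM in M12, against more than 4.8e+04 in every liver.

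In tumors, the members fell into a steep order of levels. Vim, with a mean of 2807 RPKM ± 241 (SD, n = 9), was the gene with the 12th highest mean of 33180 genes detected. Twist1 followed at 66.8 ± 9.22, Snai1 at 13.6 ± 2.22, Snai2 at 8.62 ± 2.28, Zeb1 at 8.18 ± 0.703, Krt18 at 6.65 ± 3.05, and Cdh2 at 6.32 ± 0.832. The lowest levels were those of Krt8 at 1.73 ± 1.92, Cdh1 at 0.523 ± 0.236, and Epcam at 0.305 ± 0.609. The ranges of Vim and Twist1 overlapped those of no other member, whereas the ranges of Snai1, Snai2, Zeb1, Krt18, and Cdh2 each overlapped that of the next. Those of Cdh2 and Krt8 did not overlap, and those of Krt8, Cdh1, and Epcam did. In control liver the order was led by the keratins, with Krt18 at 162 ± 7.76 and Krt8 at 111 ± 11.4 (SD, n = 5), ahead of Vim at 11.04 ± 1.98, and Twist1 came last at 0.211 ± 0.137.

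**Figure D1:**
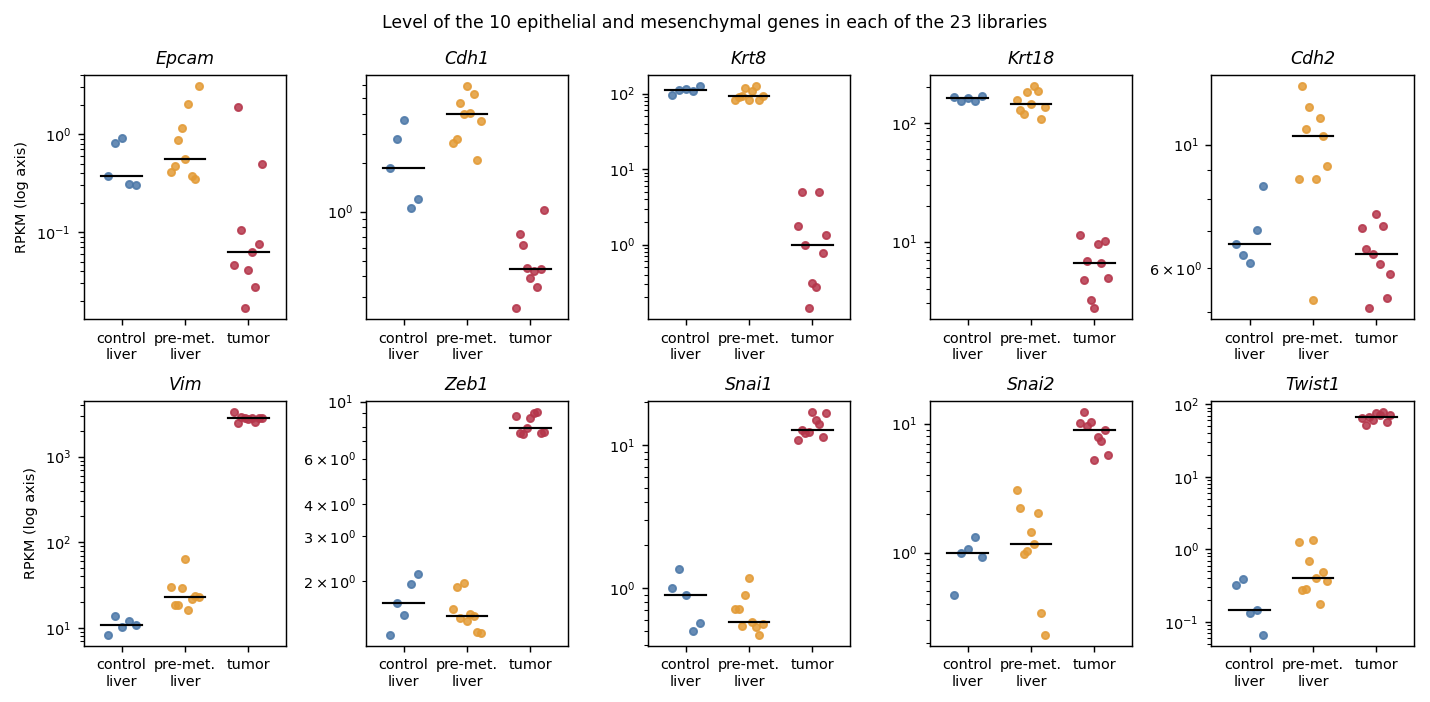
RPKM of the 10 genes in each library (points, log axis) in control liver (n = 5), pre-metastatic liver (n = 9), and tumor (n = 9), with the group median as a bar. Cdh1, Krt8, and Krt18 are lower in all 9 tumors than in any liver, Vim, Zeb1, Snai1, Snai2, and Twist1 are higher in all 9, and Epcam and Cdh2 overlap.

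The primary tumor was compared with the pre-metastatic liver of the same mice to ask how the tumor differs in these genes from the organ it may later colonize. The main fit treated tumors and livers as unpaired, and a fit with the mouse as a block was run as an alternative. All 10 members passed the test (edgeR, adjusted p under 0.05), 5 of them lower and 5 higher in the tumor. The background is wide: 83.3% of the 19749 genes tested were called in this comparison, 43.8% higher and 39.5% lower. The call itself therefore says little, and the sizes and the separation of the libraries are given as description. The share of all genes whose groups do not overlap was not counted. Separation can therefore not be read as particular to these members. Against control liver 9 of the 10 were called, where 82.3% of 19320 genes were, 44.2% higher and 38.1% lower. The fitted changes are scaled by TMM, which sets most genes level between the groups. When libraries were scaled by their totals alone, as RPKM is, the median of all genes moved up by 1.18 on the log2 scale against pre-metastatic liver and by 1.08 against control liver, and the share of higher genes among the calls went from 52.5% to 76.0% and from 53.7% to 75.7% (76.3% and 75.2% with limma on log2(RPKM + 1)). Ratios of RPKM are therefore larger upward and smaller downward than the fitted changes printed beside them.

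Among the epithelial members, Krt8 showed the largest difference. Control livers had 95.3, 110.3, 113, 108, and 127 RPKM in C1, C4, C5, C6, and C7, pre-metastatic livers 80.9 to 127 with a median of 94.0, and tumors 0.144 to 5.04 with a median of 1.0. No tumor came near a liver, and the log2 fold change was -6.99 ± 0.63 (SE) against pre-metastatic liver (edgeR, adjusted p = 2.81e-09) and -7.08 ± 0.70 against control liver (edgeR, adjusted p = 9.89e-08). The processed pseudogene copy Krt8-ps on chromosome 7, which could share reads with Krt8, held 36 to 82 counts in livers and 0 to 4 in tumors, against 7328 to 15552 and 15 to 556 counts of Krt8 in pre-metastatic livers and tumors.

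Krt18, the partner of Krt8 in the filament, was at 168, 155, 162, 153, and 171 RPKM in the control livers, at 107 to 207 (median 145) in the pre-metastatic livers, and at 2.74 to 11.3 (median 6.59) in tumors. Its log2 fold change was -5.69 ± 0.30 against pre-metastatic liver (edgeR, adjusted p = 6.40e-13) and -5.68 ± 0.31 against control liver (edgeR, adjusted p = 5.16e-11). The keratins kept a narrow ratio in liver but not in tumors: Krt8 divided by Krt18 was 0.569 to 0.743 in control livers and 0.519 to 0.783 in pre-metastatic livers, and 0.0290 to 1.04 (median 0.147) in tumors, or up to 0.764 without tumor M2. Tumor M7 had 0.274 RPKM of Krt8 beside 9.45 of Krt18, and tumor M2 had 4.93 beside 4.76. Across the 9 tumors Pearson's r between them was 0.16 (exact permutation p = 0.682, adjusted 0.892), without tumor M2 it was 0.33, and without tumors M2 and M8, the farthest from the median of Krt8, it was 0.52 (exact permutation p = 0.218).

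**Figure D2:**
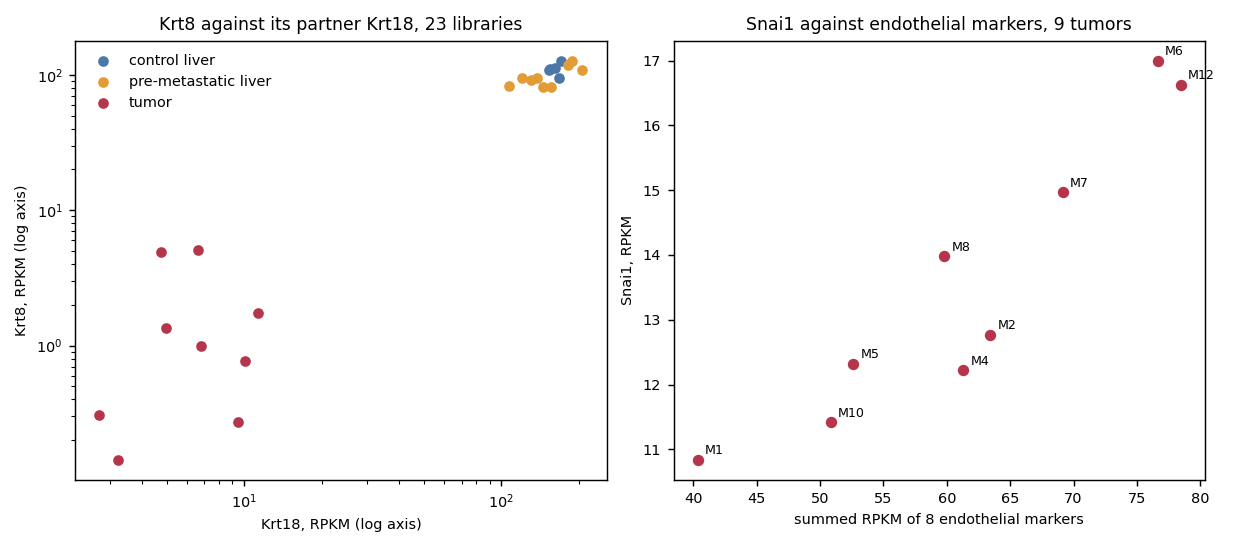
Left, Krt8 against Krt18 in RPKM (log axes) in 23 libraries, where the 14 livers form a tight group and the 9 tumors spread over Krt8 values of 0.144 to 5.04. Right, Snai1 in RPKM against the summed RPKM of 8 endothelial markers in the 9 tumors, from M1 (40.4 and 10.8) to M12 (78.5 and 16.6).

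Cdh1, the cadherin whose loss defines the transition, was at 1.86, 2.78, 3.67, 1.06, and 1.19 RPKM in the control livers, at 2.08 to 5.95 (median 3.98) in the pre-metastatic livers, and at 0.255 to 1.02 (median 0.446) in tumors. The highest tumor, M12, lay just under the lowest control liver, C6. The log2 fold change was -4.09 ± 0.28 against pre-metastatic liver (edgeR, adjusted p = 3.94e-11) and -3.10 ± 0.33 against control liver (edgeR, adjusted p = 2.80e-07). Tumors still held 71 to 247 counts of Cdh1, well above the floor of 3 counts, so the gene was low and not absent.

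Epcam was the member that was least alike from tumor to tumor. In all, 7 tumors had 2 to 12 counts (0.0168 to 0.104 RPKM), tumors M5 and M8 at 2 and 3 counts being at or under the floor, while tumor M12 had 55 counts (0.490 RPKM) and tumor M2 had 242 (1.88 RPKM). Control livers were at 0.378, 0.809, 0.922, 0.314, and 0.3003 RPKM, and pre-metastatic livers at 0.349 to 3.12 (median 0.560). The 7 low tumors lay under every liver, and M2 and M12 lay within the range of the livers. Against pre-metastatic liver Epcam fell by 3.01 ± 0.83 on the log2 scale (edgeR, adjusted p = 0.00251), and by 4.24 with the mouse as a block (edgeR, adjusted p = 0.000132). Without tumor M2 the log2 fold change was -4.47 (edgeR, adjusted p = 1.12e-05). Against control liver the log2 fold change of -1.92 ± 0.91 missed the threshold (edgeR, adjusted p = 0.0615). It was -3.40 without tumor M2 (edgeR, adjusted p = 0.000222) and -4.38 without tumors M2 and M12, a setting chosen after the data had been seen (edgeR, adjusted p = 4.33e-07).

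Beside Epcam, tumor M2 carried genes of differentiated gut epithelium that were nearly missing elsewhere. The colonocyte hormone Guca2a was at 7.32 RPKM and the goblet cell peptide Tff3 at 4.06, both with 0 in the other 8 tumors. The carbonic anhydrase Car1 was at 5.36 against at most 0.0251, the epithelial gene Phgr1 at 5.33 against at most 0.118, and the chloride exchanger Slc26a3 at 1.31 against at most 0.00559. Krt20, in contrast, was lowest in M2, at 27.8 against up to 113. In tumor M12 the same markers were low (Guca2a and Tff3 at 0) and albumin was the highest. Tumor M10, the next in albumin at 86.4 RPKM, had 0.0753 RPKM of Epcam. The part of these tissues in the Epcam values was not tested.

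Cdh2 (chr18:16588877-16809246, minus strand), listed as a mesenchymal gene, was not higher in tumors. It was at 6.62, 6.32, 6.13, 7.01, and 8.43 RPKM in the control livers, at 5.26 to 12.8 (median 10.4) in the pre-metastatic livers, and at 5.08 to 7.49 (median 6.34) in tumors. The tumor was lower than the liver in 8 of 9 mice, M6 being the exception. The log2 fold change was -1.81 ± 0.12 against pre-metastatic liver (edgeR, adjusted p = 1.18e-11), and it ran from -1.86 to -0.54 over the alternatives. Against control liver it was -1.21 ± 0.099 with TMM (edgeR, adjusted p = 9.76e-09), -0.13 with library totals (edgeR, adjusted p = 0.256), and -0.11 on log2(RPKM + 1) (limma, adjusted p = 0.247), so that the call holds only relative to the bulk of genes. The tumor mean was 0.916 of the control liver mean. The ratio of Cdh2 to Cdh1, the cadherin pair, had a median of 3.55 in control livers, 2.54 in pre-metastatic livers, and 14.1 in tumors.

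Vim was at 8.38, 13.7, 10.4, 12.1, and 10.7 RPKM in the control livers, at 16.3 to 64.1 (median 23.3) in the pre-metastatic livers, and at 2466 to 3319 (median 2820) in tumors. It was also among the steadiest members in tumors, with a coefficient of variation of 8.57%. The mean tumor level was 103 times that of pre-metastatic liver and 254 times that of control liver. On the TMM scale the change was 5.48 ± 0.28 (edgeR, adjusted p = 4.89e-13) and 6.91 ± 0.19 (edgeR, adjusted p = 2.91e-14). Vimentin is also made by fibroblasts, leukocytes, and endothelial cells. The marker sums of leukocytes and fibroblasts were higher in tumors too. Leukocyte markers summed to 1015 to 3052 RPKM in tumors against 94.5 to 258 in pre-metastatic livers. Most of the leukocyte sum was Lyz2, at a median of 1179 RPKM in tumors and 93.1 in pre-metastatic livers. Fibroblast markers summed to 522 to 832 RPKM in tumors against 42.8 to 144. Endothelial sums overlapped, at 40.35 to 78.5 RPKM in tumors and 16.5 to 67.6 in pre-metastatic livers. The part of these cells in the Vim level was not tested.

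Twist1 had the largest relative rise with Vim. Control livers were at 0.325, 0.388, 0.133, 0.144, and 0.0670 RPKM, pre-metastatic livers at 0.178 to 1.34 (median 0.408), and tumors at 51.5 to 78.6 (median 67.4). The log2 fold change was 5.62 ± 0.34 against pre-metastatic liver (edgeR, adjusted p = 6.10e-12) and 7.19 ± 0.32 against control liver (edgeR, adjusted p = 4.33e-12), and no tumor overlapped a liver.

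Snai1 was at 1.001, 1.36, 0.905, 0.507, and 0.573 RPKM in control livers, at 0.476 to 1.17 (median 0.580) in pre-metastatic livers, and at 10.8 to 17 (median 12.8) in tumors. It rose by 3.11 ± 0.17 against pre-metastatic liver (edgeR, adjusted p = 1.45e-12) and by 2.87 ± 0.23 against control liver (edgeR, adjusted p = 8.47e-09). Its relative Snai2 was at 0.469, 0.985, 1.07, 1.32, and 0.922 in control livers, at 0.232 to 3.06 (median 1.18) in pre-metastatic livers, and at 5.27 to 12.3 (median 9.001) in tumors. Snai2 rose by 1.47 ± 0.35 (edgeR, adjusted p = 0.000813) and by 2.11 ± 0.25 (edgeR, adjusted p = 7.28e-07). Zeb1 (chr18:5591860-5775468, plus strand) moved least of the factors, from 1.24, 1.64, 1.48, 1.95, and 2.13 in control livers and 1.26 to 1.96 (median 1.46) in pre-metastatic livers to 7.49 to 9.12 (median 7.87) in tumors. Its log2 fold change was 1.25 ± 0.073 against pre-metastatic liver (edgeR, adjusted p = 3.44e-12) and 1.202 ± 0.11 against control liver (edgeR, adjusted p = 2.74e-08). All 4 factors were higher in each tumor than in any liver. A transcript on the opposite strand within Zeb1, Gm10125, reached at most 0.414 RPKM, and the strandedness of the counting is not given in the sources used here.

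**Figure D3:**
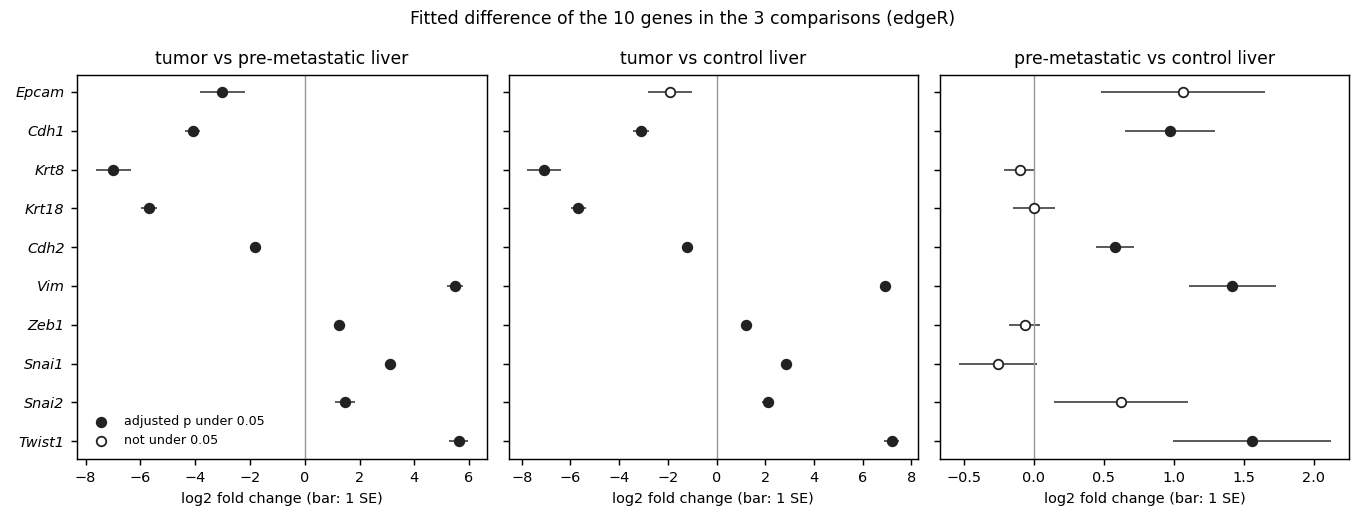
Fitted log2 fold change (points) with its standard error (bars) of the 10 genes in 3 comparisons, filled where the adjusted p of edgeR was under 0.05. The right panel has its own scale: changes there lie between -0.25 and 1.56, while those of tumors reach -7.08 and 7.19.

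Further genes tied to EMT were followed in lists that hold none of the 10 members and were chosen with earlier results of these data known. Normal colon and cultured CT26 were not sequenced, so rises and falls are differences from liver and do not show a transition. Hepatocyte markers had a median log2 fold change of -10.9 in tumor against pre-metastatic liver. The part of cell content in the lists was not tested. In tumor against pre-metastatic liver, 43.8% of all genes tested were higher and 39.5% lower. Of 25 genes of cell junctions and keratins, 22 were tested in tumor against pre-metastatic liver, with 15 lower, 5 higher, and 2 not called, and a median of -2.61 beside 0.13 for all genes tested. The tight junction proteins Cldn1 and Cldn3 had the lowest log2 fold changes, -9.22 and -9.08, Cldn3 going from a median of 74.4 RPKM to 0.174. The intestinal genes Krt20, a keratin, and Cdh17, a cadherin, rose by 6.99 and 4.03, and the tumor median of Krt20 was 59.9 RPKM where that of Krt8 was 1.0. The catenin Ctnnd1 was lower by 0.46 with TMM and higher by 0.72 with library totals. Of 13 epithelial regulators tested, 8 were lower, 2 higher, and 3 not called, with a median of -2.27. The largest falls were those of the forkhead factor Foxa2 (-11.19) and the splicing regulator Esrp2 (-9.89). The Krüppel-like factors Klf5 and Klf4 rose by 4.64 and 4.59. Single libraries moved some of these values: without liver M6 Krt20 rose by 8.51, without liver M12 Cdh17 by 5.42 and Klf5 by 5.54, and without tumor M2 the changes of Cldn3 and Foxa2 were -9.69 and -11.78.

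Of 25 mesenchymal effectors, 21 were higher, 1 lower, and 3 not called, with a median of 1.54. The calcium-binding protein S100a4 rose by 6.45, to a median of 1589 RPKM, and the matrix protein Tnc by 5.61. The lower gene was fibronectin, Fn1, whose log2 fold change was -0.96 with TMM and 0.25 with library totals (edgeR, adjusted p = 0.109). Liver made it at a median of 403 RPKM and tumors at 553. Of 14 further EMT transcription factors tested, 13 were higher and 1 lower, with a median of 4.12, against a background of 43.8% higher. The chromatin protein Hmga2 rose by 7.08, to a median of 81.6 RPKM, and the endoderm factor Gata6 fell by 4.29. A list of 19 inducers held genes of the TGF-beta and Wnt routes, the inhibitor Smad7 among them, and also Met, Egfr, Hif1a, Lox, and Loxl2. Of the 19, 11 were higher and 6 lower, with a median of 0.62. The collagen cross-linker Lox rose by 3.31 and Tgfb3 by 3.08, and the growth factor receptor Egfr fell by 8.68 and Bmp4 by 2.73. Without liver M6 the rises of S100a4 and Hmga2 were 7.30 and 8.62. In the 3 EMT signatures listed by the study, which share members with these 10, 4 of 7, 5 of 7, and 5 of 6 genes tested were higher and 3, 1, and 1 lower. With library totals the 5 lists had 11 lower and 6 higher, 7 and 5, 0 and 23, 1 and 13, and 4 and 14. Under that setting 13352 of all 19749 genes tested were higher and 4206 lower. The library-total counts are to be read beside these and not beside the TMM shares.

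Against control liver, 44.2% of all genes tested were higher and 38.1% lower. The lists gave like counts there: 13 lower and 5 higher of 20 junction genes and keratins, and 7 and 2 of 13 epithelial regulators. Mesenchymal effectors had 0 and 19 of 25, the further factors 1 and 13 of 14, and the inducers 5 and 11 of 19. In the study's signatures 4 of 6, 5 of 7, and 5 of 6 genes were higher and 2, 1, and 1 lower. Without tumors M2 and M12 these counts moved by at most 1 in any list. With single libraries left out, the lower epithelial regulators ran from 5 to 8.

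**Figure D4:**
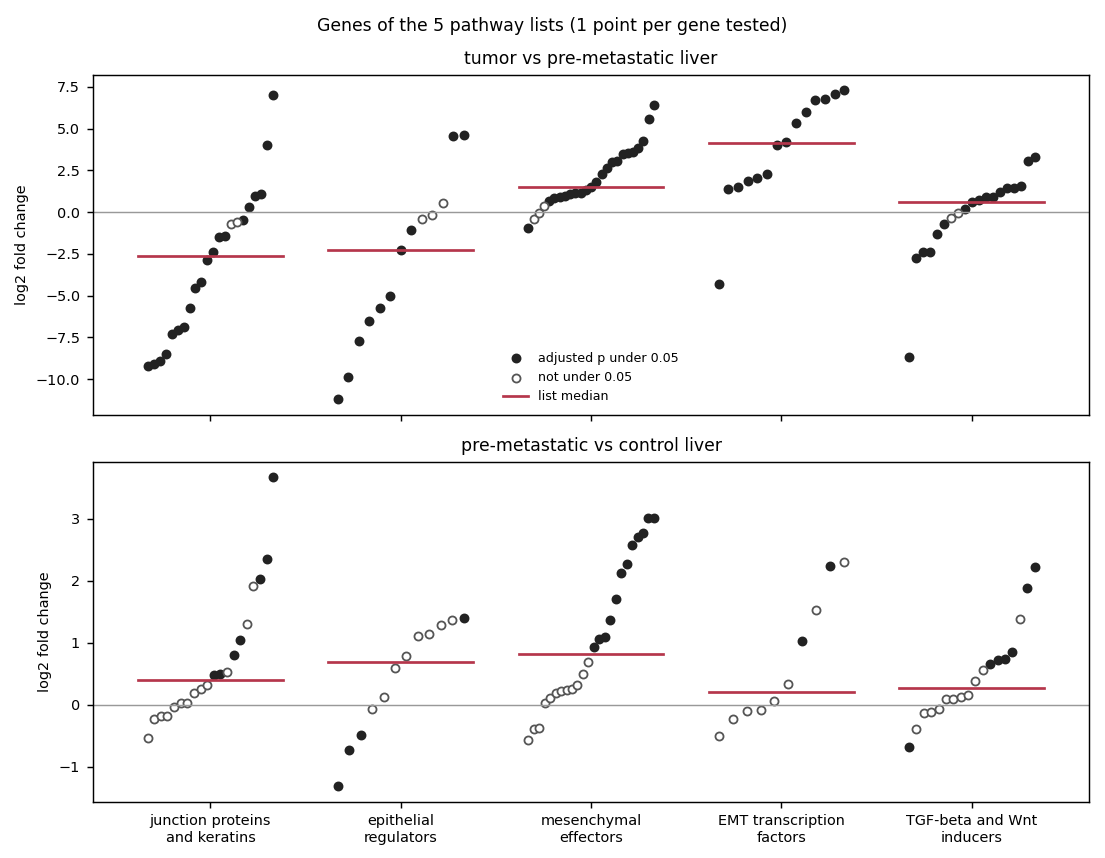
Log2 fold change of each gene tested in the 5 lists, sorted within the list, for tumor against pre-metastatic liver (top) and pre-metastatic against control liver (bottom), filled where the adjusted p of edgeR was under 0.05, with the list median in red. In the top panel 15 of 22 junction genes and keratins are lower and 13 of 14 factors higher.

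The pre-metastatic liver was compared with control liver to ask whether the distant organ already differed in these genes. Of the 10 members 4 were called, all higher: Vim, Twist1, Cdh1, and Cdh2, where 31.0% of the 16987 genes tested were called, 17.7% higher and 13.3% lower. Among the calls of all genes 57.1% were higher with TMM, 46.0% with library totals, and 39.3% with limma on log2(RPKM + 1). The called members thus held both cadherins and markers of opposite states. Vim was the only member whose groups did not overlap, and the share of all genes without overlap was not counted here either. The count of 4 became 3 without control liver C1 or C5, or without pre-metastatic liver M1, M5, M6, M10, or M12. It became 2 without control liver C6 or C7.

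Vim rose by 1.42 ± 0.31 (edgeR, adjusted p = 0.00331), with 9 of 9 pre-metastatic livers above the highest control liver. Liver M6, at 64.1 RPKM, lay far above the next, M1 at 30.4, and without M6 the change was 1.11 (edgeR, adjusted p = 0.000162). Leukocyte markers moved with it: 9 of 10 were higher and none lower, and their sum was 35.7 to 76.1 RPKM in control livers and 94.5 to 258 in pre-metastatic livers. The defining marker Ptprc, the leukocyte antigen CD45, rose by 1.44. Mesothelium markers rose in 6 of 7, with a sum of 3.29 to 7.25 RPKM against 7.54 to 26.6, the highest in M12, and fibroblast markers in 3 of 9. Krt19, a mesothelium marker that is also in the cholangiocyte list, reached 16.3 RPKM in pre-metastatic livers (median 3.003). The part of these cells in the Vim level was not tested.

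Twist1 rose by 1.56 ± 0.56 (edgeR, adjusted p = 0.0472), and 5 of 9 livers lay above the highest control liver. It was highest in M6 (1.34 RPKM, 123 counts) and M1 (1.26 RPKM, 110 counts), and C7, the lowest control liver, had 6 counts. The call was lost when any of C5, C6, C7, M1, M5, M6, M10, or M12 was left out, with adjusted p values of 0.0505 to 0.107 (edgeR), 0.0767 without M6, where the change was 1.26. It was lost too with library totals (edgeR, adjusted p = 0.0502), without a filter on low counts (edgeR, adjusted p = 0.0668), and on log2(RPKM + 1) (limma, adjusted p = 0.110).

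Liver M6 held other tumor genes beside Vim and Twist1. Krt20 was at 1.31 RPKM there, against at most 0.176 in the other 8 pre-metastatic livers and at most 0.0450 in control livers. Hmga2 was at 1.51 against at most 0.184, Twist2 at 1.08 against at most 0.250, S100a4 at 34.6 against at most 7.05, and Prrx1 at 0.397 against at most 0.108. As a share of the median tumor, liver M6 had 2.27% of Vim, 1.99% of Twist1, 1.997% of Twist2, 2.19% of Krt20, 2.17% of S100a4, 1.86% of Hmga2, and 1.34% of Prrx1. The median pre-metastatic liver had 0.134% of Hmga2, 0.155% of Krt20, 0.605% of Twist1, and 0.82% of Vim, and liver M1 had 1.875% of Twist1. These 7 genes are those of the 11 tumor-high genes whose highest liver was M6. Of the rest, Col1a1, Col1a2, and Itgam were highest in liver M1 and Spp1 in liver M12. Where this RNA came from was not tested.

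**Figure D5:**
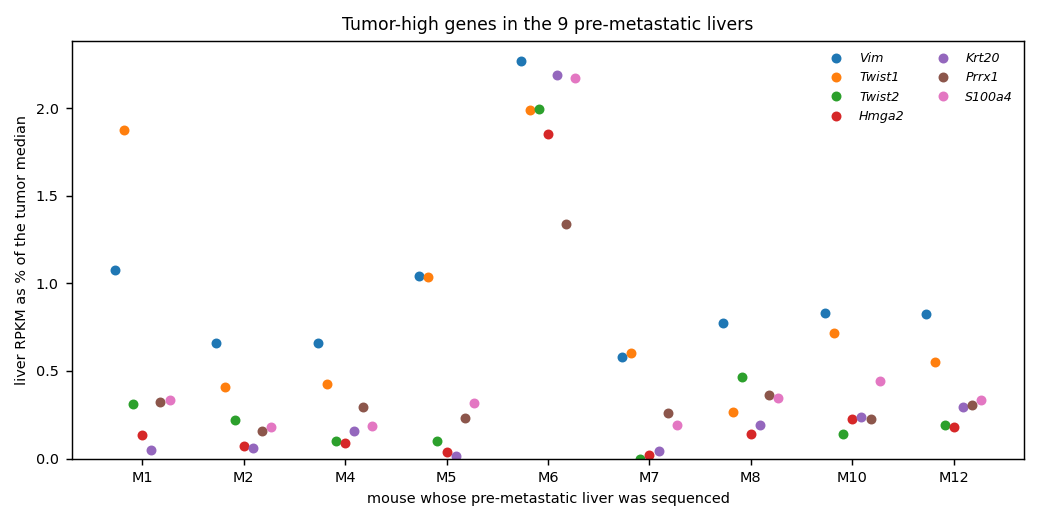
RPKM of 7 genes in each of the 9 pre-metastatic livers as a percentage of the median of the 9 tumors. The 7 genes are those of the 11 tumor-high genes whose highest liver was M6. In M6 they lie between 1.34% and 2.27%. In the other livers Hmga2 and Krt20 lie at or under 0.293%, while Twist1 reaches 1.875% in M1.

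Cdh2 rose by 0.58 ± 0.14 (edgeR, adjusted p = 0.00479), with 8 of 9 pre-metastatic livers above every control liver and M6 below every one at 5.26 RPKM. Cdh1 rose by 0.97 ± 0.32 (edgeR, adjusted p = 0.0319), with 5 of 9 livers above every control liver. Its control livers differed among themselves by 3.46 times. The call was lost without C1 (edgeR, adjusted p = 0.0662), C6 (edgeR, adjusted p = 0.0798), or C7 (edgeR, adjusted p = 0.0752), and without livers M7 and M12 together, a setting chosen after the data had been seen (edgeR, adjusted p = 0.0580).

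The other 6 members were not called. Krt8 and Krt18, the most abundant members in liver, differed by -0.10 ± 0.11 and 0.0011 ± 0.15 on the log2 scale (edgeR, adjusted p = 0.520 and 0.996). Zeb1 differed by -0.065 ± 0.11 and Snai1 by -0.25 ± 0.28 (edgeR, adjusted p = 0.693 and 0.525). Snai2 differed by 0.62 ± 0.48 (edgeR, adjusted p = 0.342), with pre-metastatic livers from 0.232 RPKM in M12 to 3.06 in M1, a wider spread than the difference. Epcam differed by 1.07 ± 0.59 (edgeR, adjusted p = 0.182). It was highest in M12 (3.12 RPKM, 414 counts) and M7 (2.01 RPKM, 330 counts). These livers also had the highest cholangiocyte marker sums, 142.5 and 121 RPKM, against 16.5 to 24.3 in control livers, and the lowest stellate sums, 18.5 and 15.5 RPKM. Most of the cholangiocyte sum was Spp1, osteopontin, at 112 and 106 RPKM in these livers and at a median of 1922 in tumors. Without Spp1 the sums were 30.1 and 14.8 RPKM, still the highest of the livers, against 5.51 to 9.03 in control livers. The part of these cells in the Epcam level was not tested.

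Between livers 17.7% of all genes tested were higher and 13.3% lower, and counts such as 2 of 10 higher lie near these shares. Of the lists, the mesenchymal effectors had 12 of 24 genes higher and none lower, with a median of 0.81 beside 0.012 for all genes. Col3a1, a fibrillar collagen, rose by 3.01 and S100a4 by 3.004, or by 2.14 without M6. The junction genes and keratins had 7 of 20 higher and none lower, led by Krt20 (3.67, with 1.31 RPKM in M6) and the cadherin Cdh3 (2.35), and 6 higher and 1 lower of 19 without M6. Krt20 was under the count filter, and so not tested, without M4, M6, M8, M10, or M12, and was not called without C1, C5, C6, or C7. The list had 3 higher genes without C1 or without C6 and 4 without C4. Of 12 epithelial regulators tested, 1 was higher, Elf3, an epithelial Ets factor (1.40), and 3 lower, Foxa2 and Foxa1 (-1.32 and -0.73) and Esrp2 (-0.50). Elf3 lost its call when any of C1, C5, C6, C7, M7, M8, or M12 was left out, and Foxa1 when C5 or C6 was. The further EMT factors had 2 of 10 higher, Prrx1 (2.24) and Zeb2 (1.03), and none lower. The inducers had 6 of 18 higher, led by Egfr (2.22) and Inhba (1.88), an activin subunit, and 1 lower, the inhibitor Smad7 (-0.69), which was not called without C5, C6, or C7. In the study's signatures 4 of 7, 2 of 4, and 2 of 6 genes were higher and none lower. Without liver M6 the other 4 pathway lists had 12, 1, 2, and 6 higher.

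Marker lists of the other cells of these tissues gave the setting. Their counts stand beside the shares of all genes tested. These were 17.7% higher and 13.3% lower between livers, and 43.8% higher and 39.5% lower in tumor against pre-metastatic liver. From control to pre-metastatic liver, 3 of 8 gut epithelium, 4 of 7 cholangiocyte, and 2 of 10 hepatocyte markers were higher and 1, 0, and 2 lower. No smooth muscle or endothelium marker of 8 each was called, and 1 of 8 stellate markers was lower. In tumor against pre-metastatic liver, 8 of 10 fibroblast, 8 of 10 leukocyte, 3 of 8 smooth muscle, 2 of 8 endothelium, 4 of 12 gut epithelium, 1 of 7 mesothelium, 2 of 7 cholangiocyte, and 1 of 8 stellate markers were higher. In the same order 1, 1, 1, 5, 6, 6, 4, and 7 were lower, so that more endothelium, gut epithelium, mesothelium, cholangiocyte, and stellate markers fell than rose. With library totals the gut epithelium markers had 5 higher and 3 lower, and the endothelium markers 3 of each. Under that setting 13352 of all 19749 genes tested were higher and 4206 lower. All 10 hepatocyte markers were lower.

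Finally, the members were compared with each other from tumor to tumor. None of the 45 pairs of members passed Benjamini-Hochberg adjustment over 9 tumors (exact permutation test, two-sided), while 4 pairs had an unadjusted p under 0.05 with Pearson's r and 3 with Spearman's rho. By Pearson's r the strongest was between the related factors Snai1 and Snai2, with r = -0.84 (exact permutation p = 0.00483, adjusted 0.199) and rho = -0.70 (exact permutation p = 0.0433, adjusted 0.396). Without tumors M6 and M12, the farthest from the median of Snai1, r was -0.53 (exact permutation p = 0.224), so that the relation was weaker without them. With single tumors left out r ran from -0.93 to -0.77. By Spearman's rho the strongest was between Snai2 and Twist1, with r = -0.81 (exact permutation p = 0.00884, adjusted 0.199) and rho = -0.85 (exact permutation p = 0.00607, adjusted 0.273). Without tumors M6 and M12 its r was -0.85 (exact permutation p = 0.0177, unadjusted).

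Of 90 pairs of a member and a summed marker list, 1 passed adjustment. Snai1 followed the endothelial markers, with r = 0.92 (exact permutation p = 0.000367, adjusted 0.0330) and rho = 0.90 (exact permutation p = 0.00203, adjusted 0.182), and r = 0.89 without tumors M1 and M12. The adjusted p of r exceeded 0.05 when any of M1, M5, M6, M7, M8, M10, or M12 was left out, while r stayed between 0.89 and 0.95. Centred on the phase of the liver's clock genes, r was 0.91 and no pair passed. Epcam followed the leukocyte sum, in tumors mostly Lyz2, with r = 0.84 (exact permutation p = 0.00815, adjusted 0.367) and rho = 0.48 (exact permutation p = 0.194, adjusted 0.638). Tumor M2 was the highest in both. Without M2 r was 0.61 (exact permutation p = 0.197), and without M1 and M2 it was 0.76 (exact permutation p = 0.102).

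Across the 9 tumors the genes whose log2(RPKM + 1) was most like that of a member, among 12769 genes, are given as a description, without a test. For Snai1 they were Pecam1 (r = 0.97) and Cldn5 (0.96), both genes of endothelial cells, and Tusc2 (0.95). Pecam1 is itself part of the endothelial sum above, so its likeness is not independent of that correlation. For Twist1 they were the metalloprotease Adamts7 (0.94), the ligand Wnt10a (0.93), and Nsmf (0.93), and for Snai2 Hspa9 (0.95), Ddx60 (0.95), and Mnda (0.94). Zeb1 was closest to Tmem65 (0.95), Camsap2 (0.95), and Akap11 (0.93), and Cdh2 to the kinase Hipk1 (0.98), Gm5483 (0.97), and Parp6 (0.95). Krt8 was closest to Slc44a1 (0.96), Wdr70 (0.93), and L3mbtl3 (0.89), and not to Krt18, whose closest named genes were Eny2 (0.90) and Smyd2 (0.89). Epcam was closest to Ppil2 (0.95), Mtg2 (0.95), and the liver esterase Ces1d (0.94), Cdh1 to Pofut2 (0.94) and Zmat5 (0.92), and Vim to Gm29630 and Gm13226 (0.89 each). With 9 points, a few tumors can set such a value.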

How the data were processed

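The members and gene lists were chosen with earlier results of these data known. The settings without mice M2, M7, and M12 and the rule for tumor-high genes were chosen after the data had been seen. For 23 poly(A) libraries (NEBNext Ultra), the authors deposited raw counts per gene and RPKM, and the submitters' processing notes name HISAT2, HTSeq 0.6.0, and mm10. RPKM recomputed from the deposited counts, lengths, and totals differed by at most 1.75e-06 of a value. Totals were 51064615 to 60393702 counts in control liver, 44587556 to 79773163 in pre-metastatic liver, and 47005276 to 70884436 in tumor. A pair of symbols on more than 1 row was summed, neither a member.

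Each comparison was fitted on its 2 groups with edgeR 4.0.16 in R 4.3.3 (TMM, quasi-likelihood, two-sided), keeping genes that reached 10 counts in 5 or more libraries, with Benjamini-Hochberg adjustment over all genes tested (threshold 0.05). The step was tested on simulated data. The SE is the log2 fold change divided by the square root of F. Alternatives were DESeq2 1.42.0, upper-quartile scaling, library totals, no filter, limma 3.58.1 on log2(RPKM + 1), the 9 mice in an early phase of the liver's clock genes (Dbp, Per3, and Ciart low against Arntl, Npas2, and Clock), each library left out, and the mouse as a replicate block. Tumor and liver are paired by animal through the labels' mouse number, and their deviations from the group means had a mean correlation of 0.098, against -0.012 between mice (9563 genes). Correlations over 9 tumors used exact permutations (Python 3.11.15, scipy 1.17.1). Named list genes are the 2 largest rises and falls per list and comparison among the calls. Genes named for tumor M2 and liver M6, and Ctnnd1, Ptprc, and Esrp2 between livers, were chosen after their values had been seen. One gene that the rule for named genes selected is not reported here.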

Additional observations from a re-analysis of the deposited data

Results flagged for a closer look

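In 30 groups of libraries (10 members in 3 groups), a single value far from the others was sought with Dixon's ratio. It divides the gap to the nearest value by the whole range, on RPKM without logs. Of these groups, 2 held such a value. The cutoff flags about 1 in 20 only where values are normally spread, which was not checked. Epcam in tumors differed by 112 times from lowest to highest, so the flags describe the RPKM scale. Epcam in the tumor of mouse M2, at 1.88 RPKM, was separated from the next tumor (0.490 RPKM) by 0.746 of the whole range of 9 tumors. That tumor also held the highest value of 13 of 17 gut epithelium markers. Vim in the pre-metastatic liver of mouse M6, at 64.1 RPKM, was separated from the next liver (30.4 RPKM) by 0.705 of the range of 9 livers. That liver also held the highest values of Twist1, Twist2, Hmga2, Krt20, S100a4, and Prrx1.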

How the results depend on the processing

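No called member changed direction under any alternative. Of the list genes, those that changed direction did so with library totals and on log2(RPKM + 1) only: 8 of 145 called in tumor against pre-metastatic liver (Ctnnd1, Ecm1, Egfl7, Fn1, Foxa1, Inhba, Lum, and Tie1) and 3 of 128 in tumor against control liver (Ctnnd1, Egfl7, and Met). With library totals the reversed change was itself called for Ctnnd1 (0.72) and Inhba (0.51, against -0.69) in the former and for Ctnnd1 (0.66, against -0.42) and Met (0.48, against -0.60) in the latter. In tumor against pre-metastatic liver all 10 members were called under every setting, and the mouse as a replicate block called 10 members and 16329 genes, against 16457 without it, and changed no call. Leaving out single libraries gave 9 to 10 members in tumor against control liver and 2 to 4 in pre-metastatic against control liver (2 without C6 or without C7), 0 pairs of members, and 0 to 1 pairs of a member and a marker list. Without livers M7 and M12 the livers gave 2 members, and centring on the clock phase gave 0 member and list pairs. The lost or gained calls of Epcam, Cdh1, Cdh2, Twist1, and Snai1 stand beside their results. In the early clock phase alone, Epcam was called against control liver (-4.67, edgeR, adjusted p = 1.00e-05) and Twist1 was not called between livers (1.32, edgeR, adjusted p = 0.150). The late phase held 1 control liver and gave no value of its own. The cause of these changes was not tested. Upper-quartile scaling moved the median of all genes by 0.18 in both tumor comparisons.

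Low counts limit Epcam in tumors (2 to 242 counts) and Twist1 in livers (6 to 123 counts).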
